A study of Rattus norvegicus with 16 samples.

Results

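The kidney takes up and hands on glucose, fructose and related hexoses through a small set of carriers, and 8 of the 35849 genes in the deposited expression table encode those described here. They were chosen by name, as the sodium-coupled carriers (SGLTs) of the apical tubule membrane and the facilitative carriers (GLUTs), the larger part of which lie on the basolateral side. All 8 names had exactly one entry each in the table, and all 8 transporters passed the filter on low counts in each of the 6 comparisons. The apical carriers are Slc5a2, which encodes SGLT2, Slc5a1 (SGLT1), Slc5a9 (SGLT4, a carrier of mannose and glucose) and Slc5a10 (SGLT5, a carrier of mannose and fructose). The facilitative carriers are Slc2a2 (GLUT2), Slc2a1 (GLUT1), Slc2a5 (GLUT5, a fructose carrier) and Slc2a9 (GLUT9, a carrier of urate that was first described as a hexose carrier).

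Glucose is filtered at the glomerulus and is recovered almost wholly in the proximal tubule. SGLT2 in the early segments and SGLT1 in the late segment bring it into the cell against its gradient, driven by sodium, and GLUT2 and GLUT1 let it pass on to the blood. In diabetes the filtered load is raised, and blockers of SGLT2 are used as drugs in people with diabetes.

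The transporters were read in renal tissue of 16 male Sprague Dawley rats aged 6 to 8 weeks at the start, 4 rats in each group. Rats of the normal group received citrate buffer alone and an ordinary diet. Those of the other groups were made diabetic with streptozotocin (STZ), a toxin of pancreatic beta cells, at 45 mg/kg after a night without food. They were kept in the study if their blood glucose exceeded 16.7 mmol/L a week later, and they ate a diet rich in glucose and fat. The DN group (diabetic nephropathy) received vehicle, and the SIN groups received sinomenine, a plant alkaloid, by gavage each day for 8 weeks, at 20 mg/kg or at 40 mg/kg. As a model of diabetes this combines loss of beta cells with a changed diet, and the normal rats differed from all other rats in both, so that the toxin and the diet cannot be told apart.

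Each rat had 19616312 to 25217030 estimated counts. Levels are in CPM, the estimated count of a gene relative to the total of its library, scaled by the trimmed mean of M values (TMM), and every difference is a log2 fold change from the quasi-likelihood test of edgeR with its standard error (SE). A gene was called changed at a Benjamini-Hochberg adjusted p under 0.05 over all genes of a comparison. The serial numbers of the libraries run on within each group, so that library order and condition cannot be told apart. The tubule markers fitted the labelled tissue: the sum of 6 markers of the early proximal tubule was between 5598 and 10996 CPM in the 16 rats, and the sum of 4 markers of all its segments was between 5009 and 7575 CPM. In whole tissue, fewer cells of a type and less RNA per cell cannot be told apart.

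The start regions of 4 transporters are shown because their RNA carries the differences described below: Slc5a10 and Slc2a2 had the largest differences from normal rats, Slc5a1 stood apart in DN rats, and Slc2a1 varied widely among DN rats. The windows are from RefSeq's rat assembly GRCr8, from 250 bases before the first transcribed base to 50 bases after it, on the gene's own strand, and the expression table was made on an older assembly, Rnor_6.0. Capitals mark the matches to the GC box, GGGCGG, and to the E-box, CACGTG, on either strand.
Slc5a10, chr10:46898411-46898710, minus strand: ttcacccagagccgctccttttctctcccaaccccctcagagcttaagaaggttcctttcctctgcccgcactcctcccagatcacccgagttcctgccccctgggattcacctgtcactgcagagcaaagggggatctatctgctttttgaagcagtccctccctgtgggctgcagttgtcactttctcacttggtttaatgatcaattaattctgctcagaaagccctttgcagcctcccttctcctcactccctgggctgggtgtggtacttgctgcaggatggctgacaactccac
Slc2a2, chr2:113540120-113540419, plus strand: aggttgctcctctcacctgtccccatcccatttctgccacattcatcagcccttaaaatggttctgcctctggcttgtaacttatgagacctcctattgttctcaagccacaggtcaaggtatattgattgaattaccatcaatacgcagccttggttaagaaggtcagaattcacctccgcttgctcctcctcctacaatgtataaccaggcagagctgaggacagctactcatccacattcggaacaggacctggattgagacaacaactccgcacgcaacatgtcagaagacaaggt
Slc5a1, chr14:81843035-81843334, minus strand: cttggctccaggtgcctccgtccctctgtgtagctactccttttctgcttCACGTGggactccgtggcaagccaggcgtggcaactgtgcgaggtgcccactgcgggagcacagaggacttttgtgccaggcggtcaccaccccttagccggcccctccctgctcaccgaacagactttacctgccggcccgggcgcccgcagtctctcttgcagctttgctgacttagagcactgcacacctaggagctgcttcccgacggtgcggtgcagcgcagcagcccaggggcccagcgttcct
Slc2a1, chr5:138002272-138002571, plus strand: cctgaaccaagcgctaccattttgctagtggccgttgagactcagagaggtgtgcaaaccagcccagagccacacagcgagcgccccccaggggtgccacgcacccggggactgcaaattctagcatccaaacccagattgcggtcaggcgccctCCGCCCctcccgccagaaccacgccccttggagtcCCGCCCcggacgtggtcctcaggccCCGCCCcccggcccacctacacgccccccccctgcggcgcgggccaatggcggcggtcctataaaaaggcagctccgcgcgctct
Slc5a10 and Slc2a2 have no capitals because neither motif is in their windows, which says only that these letters are absent there. The E-box of Slc5a1 begins 200 bases before the first transcribed base, at -200, and it was the only match in that window. The 3 GC boxes of Slc2a1 lie in the reverse orientation and begin at -95, -60 and -35. Of all 33469 RefSeq windows of this kind, 33.1% hold a GC box and 6.42% the E-box, so that a GC box is common. The GC content was 68.3% for Slc2a1 and 64.7% for Slc5a1, against 54.3% for Slc5a10, 47.7% for Slc2a2 and a median of 51.7% over all windows. Windows were given for 7 of the 8 transporters. Those of Slc5a2, Slc2a5 and Slc2a9 hold neither motif, and that of Slc5a9 was not analysed here.

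Because longer genes yield more fragments, levels of different transporters were compared per kilobase of the gene length listed in the table, which ran from 1569 bases for Slc2a2 to 3525 bases for Slc5a9. The length listed for Slc2a2 may be its coding stretch alone, and its level per kilobase rests on that length. Slc5a2 had the highest level in normal kidney, at 155 ± 27.8 CPM per kilobase (SD, n = 4). Slc2a2 (58.7 ± 8.76) and Slc5a10 (52.4 ± 13.6) followed on the same scale and did not differ beyond their spread. Slc2a5 stood at 32.9 ± 7.19, above Slc2a1 (19.9 ± 2.95), Slc5a9 (18.1 ± 1.34) and Slc5a1 (15.4 ± 3.26), and the last 3 lay within each other's spread. Slc2a9 was lowest, at 6.10 ± 0.756 CPM per kilobase. SGLT2 RNA was thus several-fold above SGLT1 RNA in every normal rat, with a per-kilobase ratio between 8.59 and 11.2.

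The order differed among the groups. In DN rats Slc5a10 led with 144 ± 19.5 CPM per kilobase, ahead of Slc5a2 (107 ± 41.9) and Slc2a2 (95.9 ± 37.1), although the spread of these 3 overlapped. Slc5a2 led again in both SIN groups, at 144 ± 28.8 with 20 mg/kg and 174 ± 45.8 with 40 mg/kg. With 20 mg/kg, Slc5a10 (126 ± 30.3) and Slc2a2 (123 ± 5.21) were within the spread of Slc5a2, and with 40 mg/kg Slc2a2 reached 153 ± 49.4 and Slc5a10 103 ± 14.4 CPM per kilobase. Slc2a9 was the lowest of the 8 in all 4 groups.

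**Figure D1:**
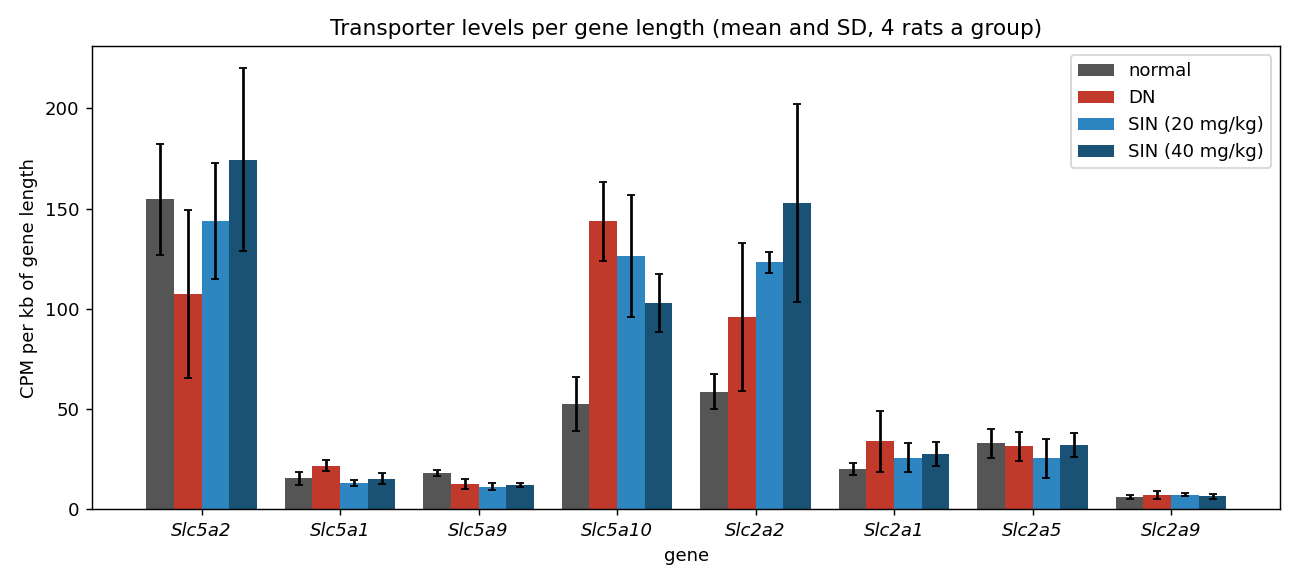
Levels of the 8 transporters in CPM per kilobase of listed gene length, as mean (bar) and SD (line) of 4 rats in each of the 4 groups. Slc5a2 led in the normal group at 155, Slc5a10 led in the DN group at 144, and Slc2a2 was at 58.7 in normal rats and at 153 with SIN at 40 mg/kg.

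The first comparison was of the diabetic model with normal kidney, in which 3 of the 8 transporters were called, against 19.5% of all 15777 genes tested. Slc5a10 and Slc5a1 rose and Slc5a9 fell, where 8.74% of all genes were called higher and 10.8% lower. All 3 are apical carriers, and none of the 4 facilitative carriers was called by edgeR, while DESeq2 called 5 of the 8, 2 facilitative carriers among them, and 26.4% of all genes. The 3 were also those whose groups did not overlap, which held for 24.3% of all genes. The median log2 fold change of the 8 was 0.37 and that of all genes was 0.0016. Only Slc5a10 had a log2 fold change of at least 1 as well, which 3.8% of all genes passed together with the p threshold.

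Slc5a10, the carrier of mannose and fructose, was at 107, 152, 81.1 and 110.1 CPM in the 4 normal rats and at 284, 370.1, 298 and 280.5 CPM in the 4 DN rats. The lowest DN rat was thus well above the highest normal rat. The difference on the log2 scale was 1.46 (SE 0.18, adjusted p = 0.00324), which is 2.75-fold. Slc5a10 kept its call under each of the 14 alternatives, rats left out included. It overlaps Fam83g in RefSeq's listing, so reads in the shared stretch may have been split between the genes. Fam83g itself, a gene looked up after these values were seen, was at 31.0 ± 9.06 CPM in normal rats and 30.5 ± 10.2 CPM in DN rats (SD, n = 4), and its log2 fold change was -0.01 (SE 0.27, adjusted p = 0.974).

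Slc5a1, which encodes SGLT1, was at 52.8, 54.6, 35.0 and 39.8 CPM in normal rats and at 57.4, 76.1, 63.8 and 60.1 CPM in DN rats. The groups stood apart by a narrow gap between the highest normal and the lowest DN rat. Its log2 fold change was 0.50 (SE 0.15, adjusted p = 0.0474), close to the threshold. The call held without normal rat 2 (adjusted p = 0.0302) and was lost without any one of the other 7 rats, where the adjusted p ran up to 0.132, reached without normal rat 4.

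Slc5a9, which encodes SGLT4, moved the other way, with 69.1, 63.9, 57.5 and 64.0 CPM in normal rats and 34.1, 49.9, 53.5 and 40.5 CPM in DN rats. All DN rats were below all normal rats, and the log2 fold change was -0.51 (SE 0.14, adjusted p = 0.0328). This call held without normal rat 2 and without DN rat 3 (adjusted p = 0.0452 and 0.0248) and was lost without any one of the other 6 rats, up to an adjusted p of 0.0856 without normal rat 4.

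Slc5a2, which encodes SGLT2 and is the target of the drugs named above, was at 433, 359, 300.2 and 302 CPM in normal rats and at 129, 221, 357 and 260.3 CPM in DN rats. The DN rats spread widely, and DN rat 3 lay within the normal range. The log2 fold change was -0.52, with a 95% confidence interval from -1.12 to 0.07 (adjusted p = 0.184). Slc5a2 overlaps a gene that the table lists under its older symbol RGD1310127 and RefSeq as Rusf1, so here too reads may have been shared. RGD1310127 was at 25.3 ± 1.46 CPM in normal rats and 31.0 ± 2.05 CPM in DN rats, and it was called higher (log2 fold change 0.30, SE 0.09, adjusted p = 0.0492).

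Among the facilitative carriers, Slc2a2 was at 107, 100.4, 84.1 and 77.2 CPM in normal rats and at 95.6, 110.0, 177 and 219.8 CPM in DN rats. Its DN rats fell into a pair within or near the normal range and a pair far above it. Its log2 fold change was 0.72 (95% confidence interval 0.16 to 1.28) and the adjusted p was 0.0706. It was called by DESeq2 (adjusted p = 0.0205), in a fit of all 16 rats (0.0473) and without DN rat 1 (0.0401). Slc2a1, the GLUT1 gene, was at 40.0, 55.6, 56.2 and 53.1 CPM in normal rats and at 139, 96.7, 62.2 and 51.2 CPM in DN rats. DN rat 1 was by far the highest of all 16 rats, whereas DN rat 4 was no higher than normal rats. Its log2 fold change was 0.77 (95% confidence interval 0.15 to 1.39, adjusted p = 0.0754), and it was called by DESeq2 (adjusted p = 0.0223) and without DN rat 4 (0.033).

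Slc2a5 and Slc2a9 differed little. Slc2a5, the fructose carrier, was between 51.0 and 85.7 CPM in normal rats and between 44.2 and 78.0 CPM in DN rats, with a log2 fold change of -0.07 (95% confidence interval -0.50 to 0.37). Slc2a9, the urate carrier, was between 17.5 and 23.7 CPM in normal rats and between 14.1 and 30.5 CPM in DN rats, with a log2 fold change of 0.24 (95% confidence interval -0.24 to 0.72). These intervals leave room for changes in either direction, and neither transporter passed the test.

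**Figure D2:**
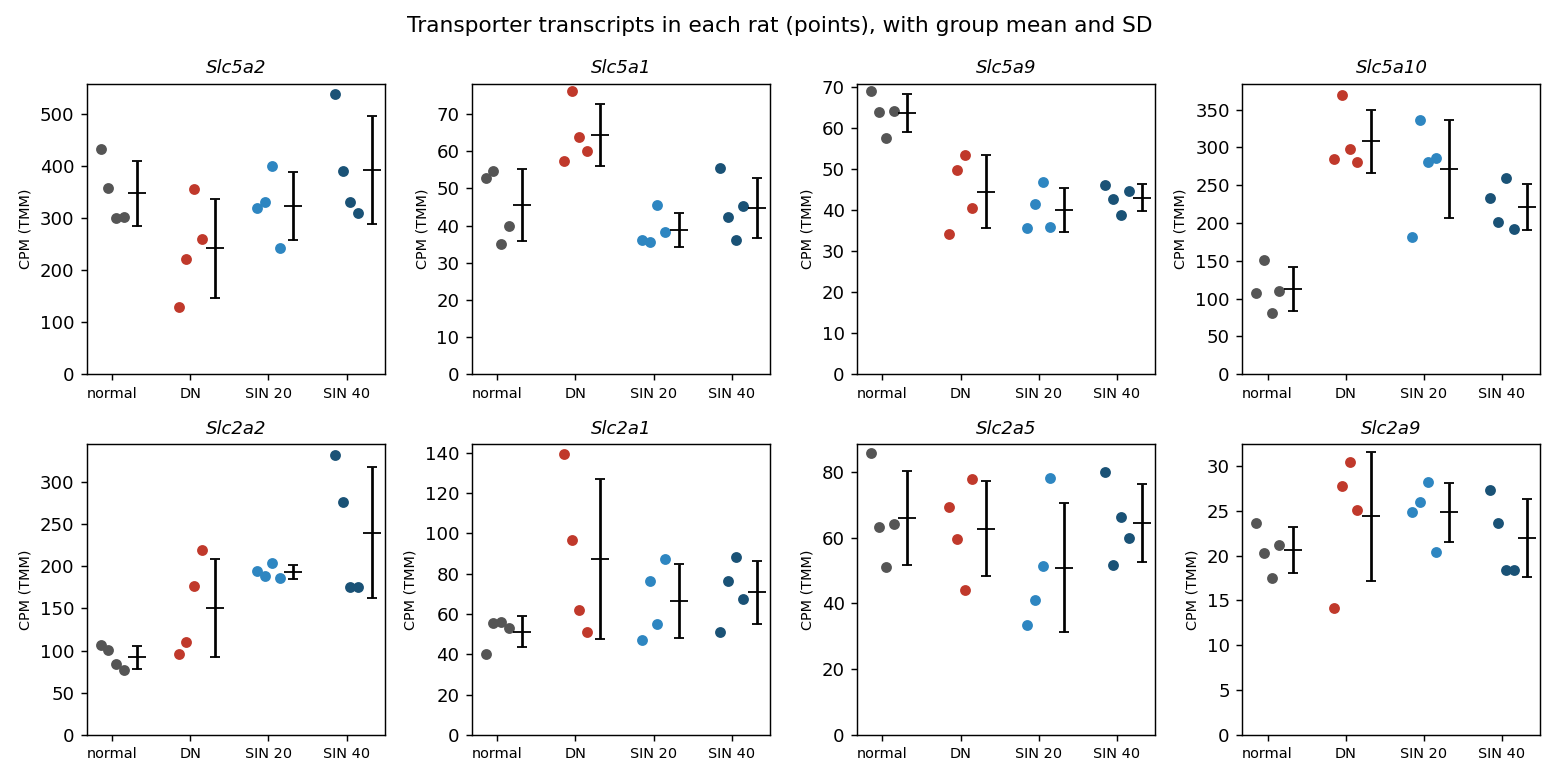
CPM of each transporter in each of the 16 rats (points), by group, with the group mean and SD beside them (crossbar and error bar, n = 4); each panel has its own axis from 0. For Slc5a10 the 4 DN rats (280.5 to 370.1) lie above the 4 normal rats (81.1 to 152). For Slc5a2, DN rat 3 (357) lies within the normal range (300.2 to 433), and the other DN rats (129 to 260.3) lie below it.

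The rats of the DN group differed from one another in markers of tubule segments, and some transporters ran with these. The sum of all 5 markers of the collecting duct, a segment that uses GLUT1, was 1805 and 1873 CPM in DN rats 1 and 2 and 1102 and 815 CPM in DN rats 3 and 4. Slc2a1 was likewise higher in DN rats 1 and 2. This split was not particular to the collecting duct. The sum of 3 thick ascending limb markers was 3248, 3238, 2124 and 1880 CPM in the 4 DN rats. That of 3 tubular injury markers was 809, 979, 501 and 302 CPM. The collecting duct sum ran from 464 to 1093 CPM in normal rats and from 815 to 1873 CPM in DN rats. It ran from 1007 to 1701 CPM in the SIN (20 mg/kg) group and from 1116 to 1941 CPM in the SIN (40 mg/kg) group. No collecting duct marker was under 1 CPM in every rat. Among these markers, Aqp2, the water channel of the collecting duct, was at 1048, 1266, 604 and 399 CPM in the 4 DN rats. None of the 5 collecting duct markers was called in DN rats over normal rats, and they did not share a direction. The log2 fold changes were 1.23 for Aqp2, 0.88 for Aqp3, 0.32 for Scnn1b, -0.17 for Slc4a1 and -0.19 for Atp6v1g3. The part of collecting duct RNA, or of RNA of the other lists named here, in the levels of Slc2a1 was not tested.

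Among the DN rats, the order of Slc5a2 was that of Slc4a4, the bicarbonate exit carrier of the early proximal tubule, a gene picked from the marker list after its values were seen. Slc4a4 was at 77.5, 147, 246 and 159 CPM in the 4 DN rats, in the same order as Slc5a2, and at 256 to 349 CPM in normal rats. In the normal group and in both SIN groups the orders of Slc5a2 and Slc4a4 differed. It was called lower in DN rats, by a log2 fold change of -0.92 (SE 0.28, adjusted p = 0.0489), and it was the only one of the 6 early proximal tubule markers called. The other 5 did not share a direction, with log2 fold changes of -1.07 for Slc5a12, -0.27 for Slc13a3, -0.07 for Slc34a1, 0.23 for Slc22a6 and 0.40 for Slc22a8. The sum of the 6 was 5598, 7246, 9812 and 10049 CPM in the 4 DN rats, which is the order of Slc2a2 and not that of Slc5a2. In normal rats the sum was 7032 to 10563 CPM, and no marker was under 1 CPM in every rat. In the late proximal tubule, where Slc5a1 is known to be used, the sum of 5 markers was 2867 to 3144 CPM in normal rats and 1521 to 2008 CPM in DN rats. Slc7a13, an amino acid carrier of that segment, accounted for the larger part of it in normal rats and was the 1 marker of the 5 that was called, with a log2 fold change of -1.51 (SE 0.13, adjusted p = 0.00113). The lower sum came from Slc7a13 alone: the log2 fold changes of the other 4 were 0.33 for Slc22a7, 0.25 for Agt, 0.07 for Acy3 and -0.09 for Cyp7b1, and none was called. How far the levels of segment markers bear on Slc5a1, Slc5a2 and Slc5a9 was not tested. Markers of other cells moved in DN rats too. Of 5 stroma and muscle markers, 2 were called higher (Col1a1 and Pdgfrb), and Acta2, Des and Lum were not called. The sum of all 5 was 133 to 191 CPM in normal rats. It was 242, 234 and 197 CPM in DN rats 1, 2 and 4, and 454 CPM in DN rat 3 alone. The leukocyte sum was low in both groups, at 16.2 to 29.5 CPM in normal rats and 16.3 to 18.3 CPM in DN rats. Of its 3 markers, Ptprc was called lower, at 6.26 ± 1.41 CPM in DN rats and 11.03 ± 2.68 CPM in normal rats (log2 fold change -0.81, SE 0.22, adjusted p = 0.0328). The other leukocyte markers, Cd3e and Cd68, had log2 fold changes of -0.70 and 0.24 and were not called. The part of these cells in the transporter levels was not tested either.

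**Figure D3:**
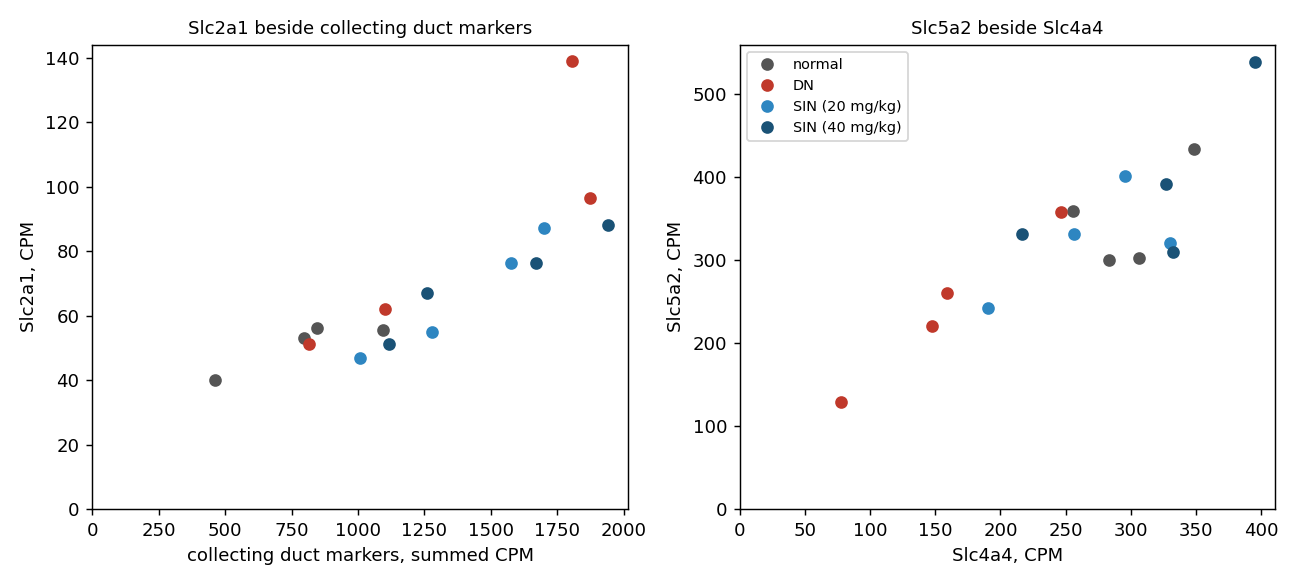
Left, CPM of Slc2a1 against the summed CPM of 5 collecting duct markers; right, CPM of Slc5a2 against CPM of Slc4a4, with a point for each of the 16 rats and colours for the 4 groups. The DN rat with the highest Slc2a1 (139) had a marker sum of 1805, and the DN rat with the lowest Slc5a2 (129) had the lowest Slc4a4 (77.5).

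Whether SIN altered the transporters of diabetic rats was asked at both doses against the same 4 DN rats, so that these comparisons are not independent. None of the 8 was called with 20 mg/kg and none with 40 mg/kg by the quasi-likelihood test of edgeR, which called 0% of the genes tested in each. At an unadjusted p under 0.05 there was 1 of the 8 with 20 mg/kg (15.4% of all genes) and there were 4 of the 8 with 40 mg/kg (17.1% of all genes). DESeq2 called 1 of the 8 with 20 mg/kg and 2 with 40 mg/kg, against 1.74% and 3.1% of all genes. Groups did not overlap for 1 transporter with 20 mg/kg, where 8.98% of all genes did not, and for 2 with 40 mg/kg, where 10.4% did not.

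Slc5a1 was the transporter that stood out with both doses. Against 57.4 to 76.1 CPM in the DN rats, it was at 36.1, 35.7, 45.6 and 38.3 CPM with 20 mg/kg and at 55.5, 42.3, 36.0 and 45.3 CPM with 40 mg/kg. All rats of both SIN groups lay below all DN rats, though SIN (40 mg/kg) rat 1 only just. With 20 mg/kg the log2 fold change was -0.73 (SE 0.12), with an unadjusted p of 0.000109 and an adjusted p of 0.143, the 12th lowest p of 15725 genes. With 40 mg/kg it was -0.52 (SE 0.14), with an unadjusted p of 0.00427 and an adjusted p of 0.195. By DESeq2 the adjusted p of Slc5a1 was 5.76e-05 with 20 mg/kg and 0.0328 with 40 mg/kg. Both SIN groups lay near the normal rats, and the log2 fold change over normal was -0.23 (95% confidence interval -0.58 to 0.12) with 20 mg/kg and -0.03 (-0.41 to 0.35) with 40 mg/kg.

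Slc5a10 was at 181, 337, 281 and 286 CPM with 20 mg/kg, which overlapped the DN rats, and at 233, 201, 259 and 192 CPM with 40 mg/kg, all below the DN rats. The log2 fold change over DN was -0.19 (95% confidence interval -0.59 to 0.20) with 20 mg/kg and -0.48 (-0.77 to -0.19) with 40 mg/kg. At the latter dose the unadjusted p was 0.00423, the adjusted p was 0.195 by edgeR and 0.0262 by DESeq2. The direct comparison of the doses gave a log2 fold change of -0.30 (95% confidence interval -0.69 to 0.09, adjusted p = 0.964), so that a difference between doses was not shown.

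Slc5a2 was at 321, 331, 401 and 243 CPM with 20 mg/kg and at 539, 391.9, 332 and 310.0 CPM with 40 mg/kg. Both groups overlapped the DN rats, since DN rat 3 stood at 357 CPM. The log2 fold change over DN was 0.41 (95% confidence interval -0.19 to 1.02) with 20 mg/kg and 0.70 (0.07 to 1.33, adjusted p = 0.262) with 40 mg/kg. Slc2a2 was at 194, 189, 205 and 186 CPM with 20 mg/kg, an even group, and at 332, 276, 176 and 176 CPM with 40 mg/kg. Its log2 fold change over DN was 0.35 (95% confidence interval -0.17 to 0.88) with 20 mg/kg and 0.67 (0.01 to 1.33, adjusted p = 0.285) with 40 mg/kg.

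The remaining 4 transporters had no unadjusted p under 0.05 in either SIN group over DN, and their groups overlapped. Slc5a9 was at 35.7 to 46.9 CPM with 20 mg/kg and 38.8 to 46.2 CPM with 40 mg/kg, within the DN range of 34.1 to 53.5 CPM, and its log2 fold changes over DN were -0.16 and -0.05. Slc2a1 was at 47.0 to 87.1 CPM with 20 mg/kg and 51.2 to 88.3 CPM with 40 mg/kg, and its log2 fold changes over DN were -0.40 and -0.30, with 95% confidence intervals from -1.08 to 0.28 and from -0.96 to 0.35. Slc2a5 was at 33.4 to 78.1 CPM with 20 mg/kg and 51.7 to 80.0 CPM with 40 mg/kg, and Slc2a9 at 20.4 to 28.2 CPM and 18.4 to 27.3 CPM. Their log2 fold changes over DN were -0.31 and 0.04 for Slc2a5 and 0.02 and -0.15 for Slc2a9, with every confidence interval spanning 0.

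Between the doses none of the 8 transporters was called by edgeR, and none had an unadjusted p under 0.05, against 0.00639% and 4.98% of 15657 genes. DESeq2 called none of them either (0.113% of all genes), and no transporter had groups that did not overlap, as 3.31% of all genes had. The log2 fold changes of 40 mg/kg over 20 mg/kg lay between -0.30 for Slc5a10 and 0.33 for Slc2a5, whose 95% confidence interval ran from -0.20 to 0.86.

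Against normal rats, which both comparisons share, each SIN group had the same 3 transporters called: Slc2a2 and Slc5a10 were higher and Slc5a9 was lower. Of all genes, 6.35% were called with 20 mg/kg (2.77% higher, 3.58% lower) and 5.97% with 40 mg/kg (2.28% higher, 3.69% lower). With a change of at least 1 on the log2 scale there were Slc2a2 and Slc5a10 with 20 mg/kg and Slc2a2 alone with 40 mg/kg, where 2.48% and 2.47% of all genes passed both limits. In both, these were also the 3 transporters whose groups did not overlap, as held for 13.7% and 14.3% of all genes. All 3 were called in each of the 14 alternatives at each dose.

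Slc2a2, the GLUT2 gene, had the lowest adjusted p of the 8 at both doses. The log2 fold change over normal was 1.07 (SE 0.12, adjusted p = 0.00109) with 20 mg/kg and 1.38 (SE 0.22, adjusted p = 0.00575) with 40 mg/kg, or 2.1-fold and 2.6-fold. The lowest SIN rats, at 186 and 176 CPM, were well above the highest normal rat at 107 CPM. Its DN value of 0.72 over normal, given above, had missed the threshold, and the steps from DN to either dose missed it too. A difference between SIN-treated and DN rats in Slc2a2 was therefore not shown, although the SIN groups differed from normal and the DN group did not pass that test.

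Slc5a10 was above normal with SIN as well, by a log2 fold change of 1.27 (SE 0.22, adjusted p = 0.00861) with 20 mg/kg and 0.97 (SE 0.18, adjusted p = 0.0116) with 40 mg/kg. Slc5a9 was below, by -0.67 (SE 0.11, adjusted p = 0.00738) and -0.57 (SE 0.09, adjusted p = 0.00629) on the log2 scale. Its highest rat of the 12 diabetic rats, at 53.5 CPM, lay under the lowest normal rat, at 57.5 CPM. Slc7a13, the late proximal tubule marker named above, was also lower than normal in both SIN groups, by -1.70 (SE 0.20, adjusted p = 0.00146) and -1.44 (SE 0.19, adjusted p = 0.00276), and the summed markers of that segment were at 1289 to 1849 and 1449 to 1679 CPM. With 20 mg/kg it was the 1 marker of the 5 that was called. With 40 mg/kg, Slc22a7 (-0.85, adjusted p = 0.0278) and Agt (-0.49, adjusted p = 0.0461) were called lower too. The median of the 5 markers was -0.27 with 20 mg/kg and -0.59 with 40 mg/kg. The part of that segment's RNA in the levels of the 3 transporters was not tested.

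The other 5 transporters were not called in the SIN groups over normal. Slc2a1 came nearest, with a log2 fold change of 0.46 with 40 mg/kg (95% confidence interval 0.09 to 0.83, adjusted p = 0.132), and it was called without SIN (40 mg/kg) rat 1 (adjusted p = 0.0452). Slc5a2 differed from normal by -0.11 (95% confidence interval -0.49 to 0.27) with 20 mg/kg and by 0.17 (-0.25 to 0.59) with 40 mg/kg. Slc2a5 and Slc2a9 had intervals that spanned 0 at both doses.

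**Figure D4:**
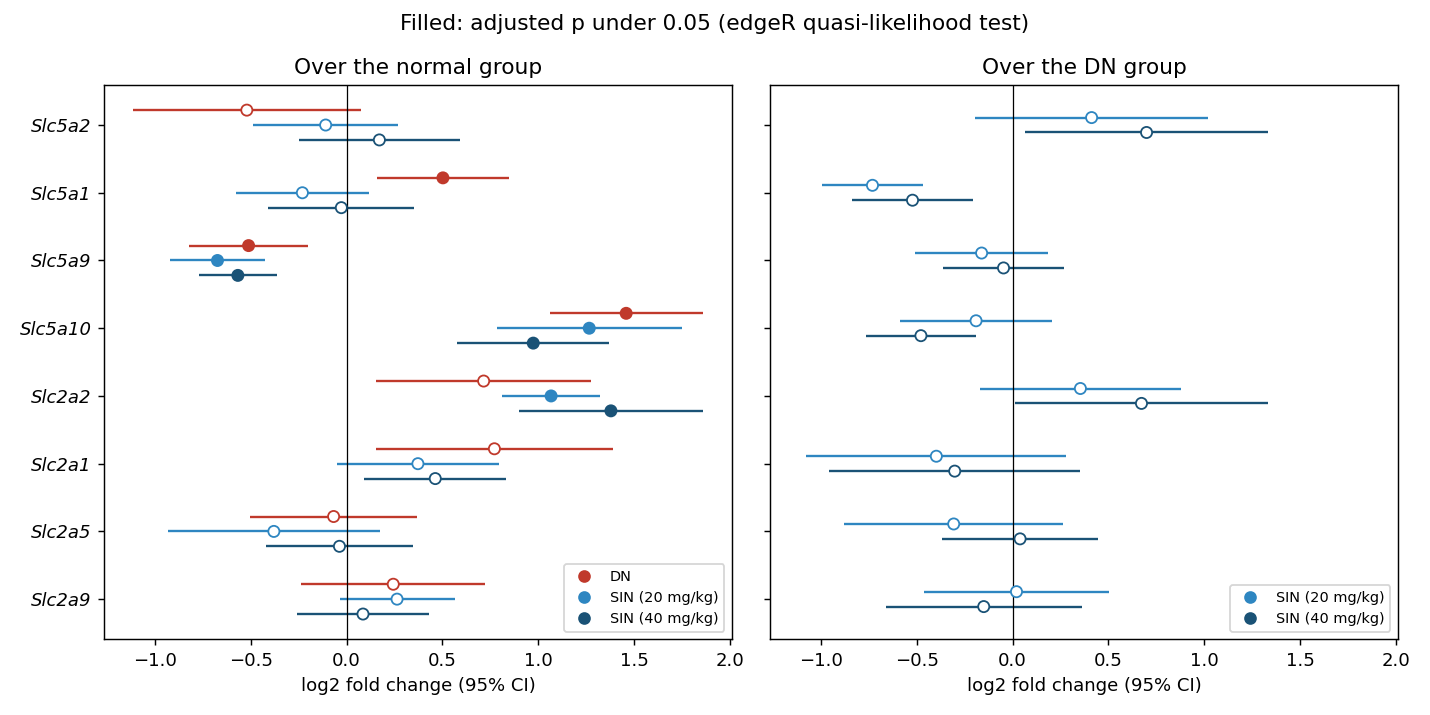
Log2 fold changes of the 8 transporters with 95% confidence intervals, over the normal group (left: DN, SIN 20 mg/kg, SIN 40 mg/kg) and over the DN group (right: both SIN doses), with filled points at an adjusted p under 0.05. Slc5a10 lies at 0.97 to 1.46 and Slc5a9 at -0.67 to -0.51 over normal in all 3 diabetic groups, and no point is filled over DN.

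The balance between entry and exit carriers was described by per-kilobase ratios within each rat, which depend on no scaling between rats. The ratio of Slc2a2 to Slc5a2, of GLUT2 to SGLT2, was 0.354 to 0.402 in normal rats. It was 0.710 to 1.21 in DN rats, 0.732 to 1.10 with 20 mg/kg and 0.760 to 1.01 with 40 mg/kg. Every diabetic rat thus had a higher ratio than every normal rat, and the 3 diabetic groups overlapped. Among the DN rats it was highest in rat 4, which had the most Slc2a2, and next in rat 1, which had the least Slc5a2.

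The ratio of SGLT2 to SGLT1 RNA (Slc5a2 to Slc5a1) followed another order. It was 2.94 to 7.32 in DN rats and 8.28 to 12.2 and 8.94 to 12.7 in the SIN groups, beside the 8.59 to 11.2 of normal rats. All DN rats were below all others, and the SIN groups lay about the normal range. The ratio of Slc5a10 to Slc5a2 was 0.260 to 0.444 in normal rats, 0.877 to 2.31 in DN rats, 0.593 to 1.24 with 20 mg/kg and 0.455 to 0.819 with 40 mg/kg, so that each diabetic rat exceeded the normal ones. The ratio of Slc2a2 to Slc2a1 did not separate the groups. It was 2.39 to 4.38 in normal rats and 1.13 to 7.05 in DN rats. With 20 mg/kg it was 3.51 to 6.80, and with 40 mg/kg it was 3.27 to 10.7. These ratios were set up with the single levels known and carry no test. How many ratios of other gene pairs would separate the groups was not examined.

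Other genes of the hexose transport system were taken from lists. Of 15 further SLC5 and SLC2 family genes, 14 were in the table and 9 were tested in DN over normal, of which 1 was called higher and 2 lower, beside the 8.74% and 10.8% of all genes, with a median log2 fold change of 0.20. Slc5a8, a sodium-coupled carrier of lactate and other monocarboxylates, fell by 0.85 on the log2 scale (SE 0.24, adjusted p = 0.0385), and Slc2a13, the proton-coupled myo-inositol carrier, fell by 0.67 (SE 0.17, adjusted p = 0.0275). Slc2a8, which encodes the intracellular carrier GLUT8, rose by 0.44 (SE 0.13, adjusted p = 0.047). None of these family genes was called in any of the other 5 comparisons, in each of which 10 were tested.

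Of 12 partners and regulators of the transporters, 11 were tested, and 1 was called in DN over normal, where 19.5% of all genes were. Pdzk1ip1, which encodes MAP17, a small membrane protein that SGLT2 needs for its activity, was at 268, 305, 239 and 245 CPM in normal rats and at 338, 381, 405 and 397 CPM in DN rats. The groups did not overlap, and the log2 fold change was 0.53 (SE 0.11, adjusted p = 0.0152), whereas Slc5a2 itself was not called. The median of the 11 was 0.03. Of the 7 genes of hexose phosphorylation and fructose breakdown, 6 were tested, and none was called by edgeR in any comparison, with a median log2 fold change of 0.02 in DN over normal.

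The genes whose log2 levels ran closest to each transporter over the 16 rats were found by the SD of the log2 ratio to it. A smaller SD means a closer pattern, and the choice was among 13320 genes. The median SD over these genes was 0.54 for Slc5a2, 0.44 for Slc5a1, 0.42 for Slc5a9 and 0.70 for Slc5a10. It was 0.68 for Slc2a2, 0.53 for Slc2a1, 0.46 for Slc2a5 and 0.40 for Slc2a9. A gene of constant level would have the transporter's own SD. Slc2a1 had the closest partners: Pkm, the pyruvate kinase of cells other than those of the liver and proximal tubule, with an SD of 0.083, then Epn3 and Crip2, with 0.11 each, against an SD of 0.46 for Slc2a1 itself. For Slc5a2 the SD was 0.15 for Greb1, 0.18 for Kcnj15 and 0.19 for Slc22a23, beside its own SD of 0.47. For Slc2a2 it was 0.26 for Naglt1, 0.26 for Ca14 and 0.31 for Slc17a4, beside its own 0.63. For Slc5a10 it was 0.25 for Grap, which adjoins it on chromosome 10 in RefSeq's listing, 0.26 for Chchd6 and 0.27 for Rnf186, beside its own 0.64.

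Naglt1, listed in RefSeq as a sodium-dependent glucose transporter, had the level closest in pattern to Slc2a2. It was at 572 ± 77.8 CPM in normal rats, 809 ± 316 in DN rats, 1099 ± 234 with 20 mg/kg and 1182 ± 196 CPM with 40 mg/kg (SD, n = 4). It was called over normal with 20 mg/kg (log2 fold change 0.94, SE 0.16, adjusted p = 0.00931) and with 40 mg/kg (1.05, SE 0.15, adjusted p = 0.00392), and it was not called in DN over normal (0.51, SE 0.26, adjusted p = 0.183). Grap was at 19.0 ± 3.18 CPM in normal rats and 38.9 ± 7.81 CPM in DN rats, with a log2 fold change of 1.04 (SE 0.16, adjusted p = 0.00579). Naglt1 and Grap were picked because they ran close to Slc2a2 and Slc5a10 in these same rats. Their tests are therefore not separate evidence on those transporters.

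For the other transporters the closest genes were Lhpp, Cluh and Sh3bp1 for Slc5a1, with an SD of 0.21 each beside its own 0.35, and Ankrd33b, Stk24 and AABR07030603.1 for Slc5a9, with 0.14, 0.14 and 0.16 beside 0.32. Zdhhc12, Kcnc4 and Emx1 were closest to Slc2a5, with 0.25, 0.25 and 0.26 beside 0.38. Proz and Slc7a9, the latter a carrier of cystine in the proximal tubule, were among the closest to Slc2a9, with 0.17 and 0.18 beside 0.30. These SDs were over the same 16 rats from which the levels above were taken, and they are descriptions without a test.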

How the data were processed

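According to the labels and the paper, polyadenylated RNA from renal tissue was made into TruSeq libraries and sequenced on an Illumina platform, and the authors trimmed the reads and aligned them with TopHat to the Rnor_6.0 rat genome. The authors deposited one table of estimated counts per gene and rat, before any normalization. RSEM is named among the tools of the submitters' processing notes, with no role given, and whether the counting used strand is not given in the sources used here. The table also holds the authors' mean of each group, used only to check that columns and rats were joined correctly (they agree within 0.0005 counts), gene lengths, and 4 libraries that no sample record names, which were not used.

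Estimated counts were rounded to whole numbers (74.3% of nonzero values were whole as deposited). Each of 6 pairs of groups was tested in its own fit of 8 rats with edgeR 4.0.16 (glmQLFit and glmQLFTest, TMM, genes kept by filterByExpr), two-sided, and Benjamini-Hochberg adjustment ran over all genes of the fit. CPM used TMM factors over all 16 rats, with a prior count of 2 on the log2 scale, and the totals of 19616312 to 25217030 counts per rat set their precision. The labels say only that the rats of a group are separate samples, so p-values measure the spread between these samples. No 2 libraries of a group agreed within sampling noise.

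The alternatives were the Wald test of DESeq2 1.42.0, RLE in place of TMM, either no filter or a minimum of 10 counts in each rat of a pair, a joint fit of the 16 rats, a block for replicate number, and each rat left out. Named were all 8 transporters, from each list at most 4 genes called in DN over normal, and for each transporter the 3 genes with the smallest SD of the log2 ratio among genes tested in all comparisons with a mean of at least 1 CPM. Slc5a3, Mlxipl and Pecam1 had no entry under that symbol. Fam83g, RGD1310127, Aqp2 and the levels of Naglt1 and Grap were looked up after values were seen. Results for some genes within these rules are not reported here. The members and lists were chosen with earlier results of these data known. The edgeR fit alone was run on simulated counts, with rises planted in some genes. The DESeq2 fits, the ratios and the ranking by SD were not tested in that way. Analyses ran in R 4.3.3 and Python 3.11.15.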

Additional observations from a re-analysis of the deposited data

How the results depend on the processing

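In DN over normal, the number of the 8 transporters called was 3, and it was 5 with DESeq2, 1 with the replicate number as a block, and 1 to 3 with one rat left out, being 1 without normal rat 1, 3 or 4 or without DN rat 2. In SIN (20 mg/kg) over DN and SIN (40 mg/kg) over DN it was 0, and 1 and 2 with DESeq2. In SIN (40 mg/kg) over normal it was 3, and 3 to 4 with one rat left out, and in SIN (20 mg/kg) over normal it stayed at 3. Counting only changes of 1 or more on the log2 scale, the number was 2 in SIN (20 mg/kg) over normal (1 without normal rat 4) and 1 in SIN (40 mg/kg) over normal (2 without normal rat 2, SIN rat 2 or SIN rat 4). The cause of these differences was not tested. Slc5a10, Slc5a9 and Slc2a2 kept their calls in both SIN groups over normal under all alternatives, as did Slc5a10 in DN over normal. Slc5a1 in DN over normal was not called without the filter (adjusted p = 0.0541).

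Rats of the same number did not deviate together throughout: correlations over genes were between -0.27 and 0.30, and no comparison had all 4 pairs over 0.1. Pairs of unlike number were not examined, so this check cannot show that the numbers carry no pairing. With the block, Slc5a1 and Slc5a9 were not called in DN over normal (adjusted p = 0.0603 and 0.078) and Slc2a1 was called in SIN (40 mg/kg) over normal (0.0229).

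The sign turned in 22 cases, each with one rat left out and each of a log2 fold change that was not called. Their ranges were -0.19 to 0.086 for Slc2a5 and DN over normal, -0.17 to 0.15 for Slc2a9 and -0.23 to 0.018 for Slc5a2 in the SIN (20 mg/kg) group over DN and over normal respectively, -0.18 to 0.056 for Slc5a9 and -0.10 to 0.16 for Slc2a5 in SIN (40 mg/kg) over DN, -0.024 to 0.30 for Slc5a2, -0.15 to 0.069 for Slc5a1, -0.16 to 0.12 for Slc2a5 and -0.040 to 0.17 for Slc2a9 in SIN (40 mg/kg) over normal, and -0.040 to 0.25 for Slc2a1 between the doses. RLE scaling moved the median of all genes most in SIN (40 mg/kg) over DN, by -0.0145 on the log2 scale. With 4 rats a group, a difference whose interval given above spans 0 cannot be told from none. The intervals were not adjusted over genes, so one that excludes 0 is not a call.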
